A study of Canis lupus familiaris with 21 samples.

Results

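Genes of the death receptor route to apoptosis, FASLG, TNFSF10, FAS, TNFRSF1A, FADD, CASP8, CFLAR and BID, were followed in canine cutaneous histiocytoma (CCH). They were found by gene symbol, as the deposited tables write it before a numbered ending, and all 8 were present once among the 21399 genes listed. These genes cover ligands, receptors, the adaptor, the initiator caspase, its inhibitor and the link to mitochondria. None of them is an executioner caspase. A wider list of 30 other measured genes of the pathway was read beside them.

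In the extrinsic pathway of apoptosis, a ligand on a killer lymphocyte or another cell binds a death receptor on the target cell. The receptor then gathers the adaptor FADD, which recruits the initiator caspase CASP8. Active CASP8 cleaves executioner caspases directly and cleaves BID, whose fragment acts on mitochondria. CFLAR, an enzymatically inactive relative of CASP8, competes for the adaptor and restrains the signal. Cytotoxic T cells and NK cells are the classic source of FASLG, while TNFSF10 (TRAIL) is made by many immune cells and is induced by interferons. CCH is a tumor of Langerhans cell origin in the skin that usually regresses by itself while lymphocytes move in.

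RNA came from archived formalin-fixed, paraffin-embedded tumors of privately owned dogs of various breeds, read by QuantSeq 3′ sequencing, which counts transcripts from their 3′ ends. Group 1 held 5 tumor cell-rich samples of stage 1, from dogs of 0.5 to 5 years with 1 age not given, and group 2a held 5 tumor cell-rich areas of stage 2, from dogs of 0.6 to 3 years. Group 2b held 6 lymphocyte-rich areas of stage 2, of which 4 were pools of 3 or 4 dogs and 2 came from single dogs, with ages from 0.3 to 6 years and 1 age not given. In the study's sample list, the dogs given for group 2b are not those given for group 2a. Area and dog therefore differ together between these groups. Group 3 held 5 lymphocyte-rich samples of stage 3, from dogs of 1.5 to 9 years. No treatment is named for any group and no normal skin was included, so the stages and areas were compared with each other. The areas were enriched by histology rather than sorted, and every sample mixed cell types. A difference in a gene here can therefore be fewer cells of a type or less RNA per cell, which cannot be told apart.

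The total count over genes lay between 2113393 and 3559404 in each sample. Its mean was 2881270 in group 1, against 2478490 in group 3 (p = 0.0238, 2-sided exact permutation test) and 2415520 in group 2a (p = 0.0714, same test). The DV200, the percentage of RNA fragments longer than a set length, was lower in group 1 (68.5% ± 2.46, SD, n = 5) than in group 2a (73.7% ± 2.69, n = 5) and group 3 (73.2% ± 2.09, n = 5), with p = 0.0159 and p = 0.0238 in 2-sided exact permutation tests. DV200 and ages are those of the sample labels, and the study's own sample list gives another DV200 for replicate 5 of group 3 and another age for 1 dog in a pool of group 2b. Summed normalized counts of 10 T cell genes ranged from 70.9 to 2430 for group 1, 586 to 1754 for group 2a, 3536 to 5107 for group 2b and 3771 to 5672 for group 3, so the lymphocyte-rich groups stood above the tumor cell-rich ones in every sample. CD4 lay at 3 counts or fewer in every sample, and MS4A1, a defining B cell gene, was at 0 throughout groups 1 and 2a. The 6 B cell genes together were not absent there, with sums of 397 to 610 for group 1 and 339 to 868 for group 2a. Their sums were 1029 to 1745 for group 2b and 289 to 1939 for group 3. The 8 markers of histiocytic cells summed to 4853 to 6546 for group 1, 4086 to 7297 for group 2a, 4085 to 5453 for group 2b and 4535 to 5709 for group 3. CD1A6 lay at 3 counts or fewer in every sample. Single markers moved both ways, with log2 fold changes from -1.20 to 3.08 between groups 2a and 1 and from -3.08 to 1.45 between groups 3 and 2b. In both, 0 passed the adjusted p. Keratinocyte genes ran from 833 to 13339 for group 1, 240 to 3215 for group 2a, 198 to 2173 for group 2b and 655 to 6969 for group 3.

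FASLG was higher in lymphocyte-rich than in tumor cell-rich areas of stage 2, which came from different dogs, and with it CFLAR. TNFSF10 stood higher and BID lower in stage 3 lymphocyte-rich samples than in stage 1 tumor samples. TNFSF10 was also the member whose 2 stage steps differed. These steps were stage 1 to 2 in tumor cell-rich areas and stage 2 to 3 in lymphocyte-rich areas. FAS, TNFRSF1A, FADD and CASP8 passed the test in no comparison, and CASP8 had too few counts for it in the comparisons with group 1. A normalized count is the read count divided by the size factor of its sample, and differences are log2 fold changes ± SE. In edgeR's quasi-likelihood test, a gene was called when its p, adjusted over all genes tested after Benjamini and Hochberg, was 0.05 or lower and its log2 fold change was 1 or more in either direction.

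**Figure D1:**
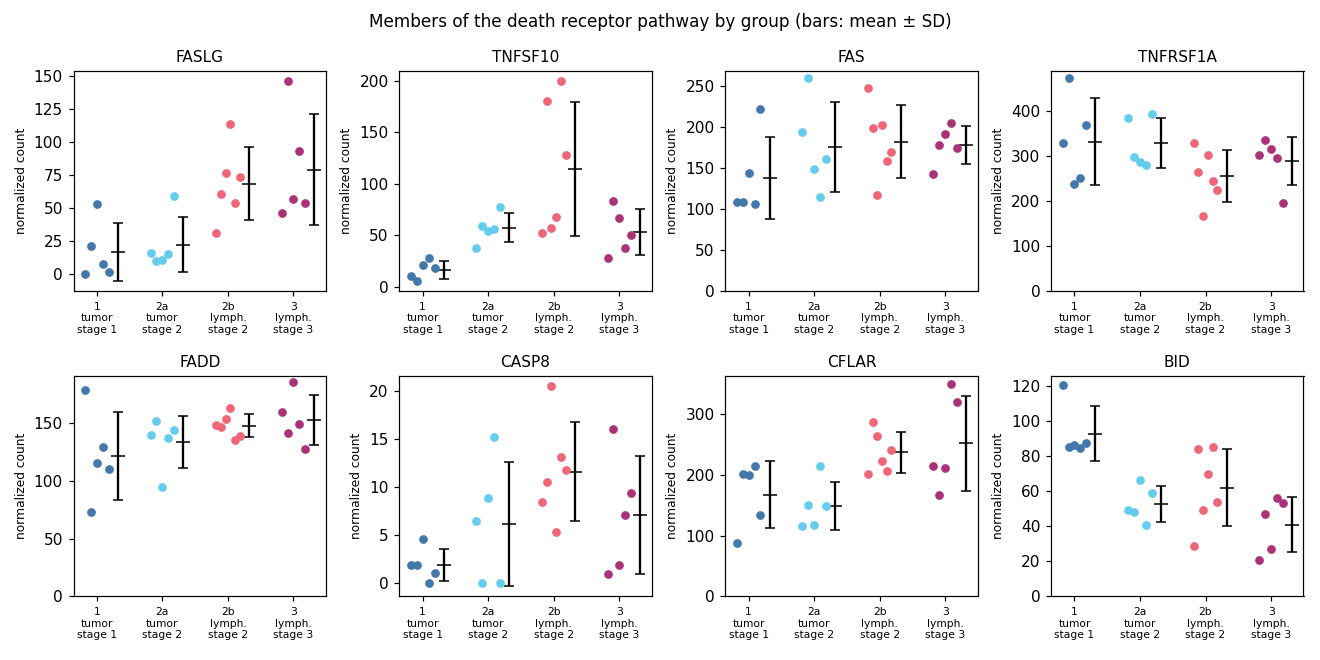
Normalized counts of the 8 members (y axis, linear, each panel with its own scale) in every sample of the 4 groups, with the mean ± SD beside the points. TNFSF10 in group 1 lay below every other sample, from 5.62 to 27.6, and BID in group 1, from 85.0 to 121, lay above every sample of groups 2a and 3.

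TNFSF10, the ligand known as TRAIL, lies on chromosome 34 (36969308 to 36985009, assembly UU_Cfam_GSD_1.0). Its normalized counts were 10.4, 5.62, 20.9, 27.6 and 18.6 in group 1, and 38.0, 59.4, 54.4, 56.1 and 77.5 in group 2a. In group 2b the lowest sample had 52.3, the median was 98.0 and the highest had 199.96. Group 3 had 28.0, 83.0, 66.9, 37.3 and 50.3. Group 1 was the low group, and its highest sample lay below the lowest sample of each of the other groups, by 27.6 against 28.0 at the closest. The read counts of those 2 samples were 35 and 28, so groups 1 and 3 were separate only after scaling. The order of the means was group 1 (16.6 ± 8.69), group 3 (53.1 ± 22.2), group 2a (57.1 ± 14.1) and group 2b (114 ± 65.1), and only the first pair of neighbours did not overlap.

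In group 3 against group 1, TNFSF10 rose by 1.67 ± 0.45 (edgeR, adjusted p = 0.0286), and the samples did not overlap. Area and stage both differ in that comparison. Between group 2a and group 1, both tumor cell-rich and of different stages, the difference was 1.78 ± 0.38 with an adjusted p of 0.0539 in edgeR, just above the threshold, although the samples did not overlap. The value passed in 3 of 16 alternative fits, with DESeq2 (adjusted p = 0.000965), all 4 groups in 1 fit (0.0257) and without replicate 4 of group 1 (0.0432). With DV200 in the fit it was 1.85 with an adjusted p of 0.482, and the other fits that left out a sample reached 0.133. Between group 3 and group 2b the difference was -1.10 ± 0.39 (adjusted p = 0.263), and between group 2b and group 2a it was 0.99 ± 0.36 (adjusted p = 0.0767).

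The 2 stage steps were set against each other in 1 fit of all 4 groups. The step in the tumor cell-rich areas ran from stage 1 to 2, and that in the lymphocyte-rich areas from stage 2 to 3. Area and stage therefore differ together between the steps. Their difference is also that of the stage 2 groups (2a and 2b) from groups 1 and 3. The step of TNFSF10 in the tumor cell-rich areas minus that in the lymphocyte-rich areas was 2.87 ± 0.58 on the log2 scale (edgeR, adjusted p = 0.00966). It was called, as were 3.97% of the 12505 genes tested in this fit, and 5.34% passed the adjusted p alone. None of the other 7 members passed. Leaving out each of the 21 samples in turn kept it past the threshold, with values from 2.64 to 3.13. Group 1 differed from group 2a in DV200, and with DV200 in the fit the difference was 2.99 with an adjusted p of 0.0543. With the 2 single-dog samples as the only ones of group 2b it was 2.88 with an adjusted p of 0.112. Keratinocyte genes had steps in the same 2 comparisons, with all 8 tested genes negative between group 2a and group 1 (median -2.06) and positive between group 3 and group 2b (median 1.85), and 2 of the 8 passed the test of the difference between steps. Their part in the result was not tested.

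BIRC3, an inhibitor of apoptosis that acts on TNF receptor complexes, and TRADD, the adaptor of TNFRSF1A, were the only other listed genes past that test, of 22 tested. The BIRC3 step differed by 2.08 ± 0.50 (edgeR, adjusted p = 0.0203). Its normalized counts were 31.2, 36.5, 85.6, 26.0 and 54.6 in group 1 and 79.8, 39.6, 67.8, 71.3 and 120.1 in group 2a, against a median of 190 (129 to 442) in group 2b and values of 101, 137, 84.4, 78.6 and 76.4 in group 3. Its own steps were 0.70 ± 0.37 and -1.38 ± 0.31, with adjusted p values of 0.340 and 0.103 in edgeR. Like TNFSF10, its highest mean was that of group 2b.

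TRADD moved the other way, by -0.94 ± 0.19 (edgeR, adjusted p = 0.0108). It had 353, 420, 519, 480 and 380 in group 1 and 345, 320, 229, 389 and 354 in group 2a, then 226 to 291 with a median of 242 in group 2b, and 371, 350, 340, 346 and 407 in group 3. Every sample of group 3 lay above every sample of group 2b, yet that step was 0.55 ± 0.12 with an adjusted p of 0.0877. Samples of these groups were separate for 247 of the 11685 genes tested.

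**Figure D2:**
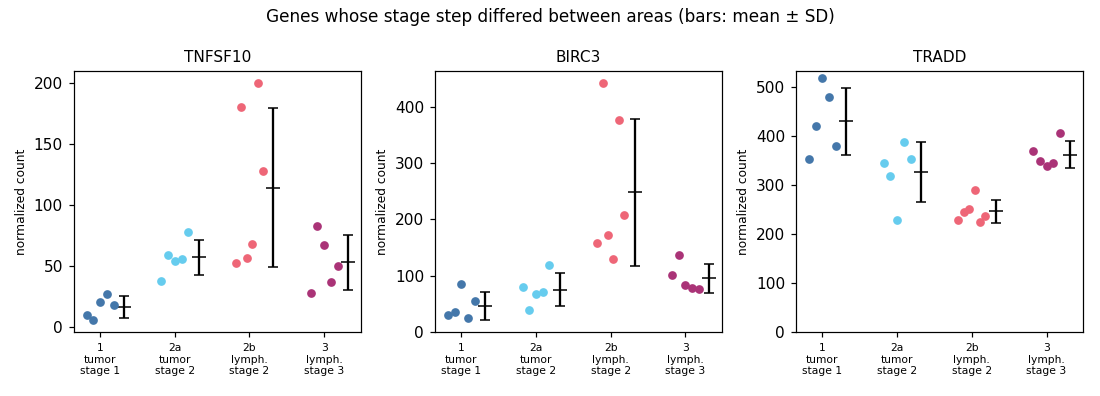
Normalized counts (y axis, linear) of TNFSF10, BIRC3 and TRADD in every sample, with the mean ± SD beside the points. TNFSF10 and BIRC3 have their highest means in group 2b, at 114 and 248, while TRADD has its lowest there, at 247.

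BID, which carries the caspase signal to mitochondria once cut, lies on chromosome 27 (652469 to 692311). It had 121, 85.2, 86.5, 85.0 and 87.4 in group 1 and 49.2, 47.9, 66.7, 40.9 and 59.1 in group 2a. Group 2b ran from 28.9 to 85.4 with a median of 62.0, and group 3 had 20.98, 47.2, 27.2, 56.4 and 53.4. Every sample of group 1 was above every sample of groups 2a and 3, while group 2b reached into the range of group 1. The means ran from group 3 (41.0 ± 16.0) over group 2a (52.8 ± 10.1) and group 2b (62.0 ± 22.03) to group 1 (93.0 ± 15.6), and each pair of neighbours overlapped.

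BID fell by 1.18 ± 0.29 on the log2 scale in group 3 against group 1 (edgeR, adjusted p = 0.0203). In group 2a against group 1 the difference was -0.81 ± 0.20 with an adjusted p of 0.0814 in edgeR. Of 16 alternative fits, DESeq2 was the 1 that passed (0.0124), while DV200 in the fit gave an adjusted p of 0.482 and leaving out a sample gave 0.0821 to 0.165. The difference was -0.60 ± 0.32 between group 3 and group 2b (adjusted p = 0.451) and 0.22 ± 0.26 between group 2b and group 2a (adjusted p = 0.629).

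The comparisons of groups 2a and 3 with group 1 share the samples of group 1. Of the 7 members tested between group 3 and group 1, TNFSF10 and BID were called, while 8.33% of the 11470 genes tested were called and 13.9% passed the adjusted p alone. These 2 were also the ones whose samples did not overlap, which held for 11.9% of the genes tested. The calls rested on the samples used. With DV200 as a covariate the adjusted p was 0.448 for TNFSF10 and 0.308 for BID. Leaving out 1 sample ended the TNFSF10 call for replicates 1 and 5 of group 1 (adjusted p = 0.0644 and 0.0563) and replicates 2 and 3 of group 3 (0.0718 and 0.0527), and the BID call for replicate 1 of group 1 (0.0527), all in edgeR.

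Between group 2a and group 1, 0 of 7 members tested were called by edgeR, against 0.393% of 11200 genes, and 0.527% passed the adjusted p alone. There were 2 members with an unadjusted p under 0.05, and 2 passed the adjusted p in DESeq2. TNFSF10 and BID were in both counts, and their samples did not overlap, which held for 5.65% of the genes tested. Of the 22 other pathway genes tested, 0 passed the adjusted p in edgeR and 4 had an unadjusted p under 0.05. Between group 3 and group 2b, 0 of 8 members were called, against 0.0428% of 11685 genes, with 0.111% past the adjusted p alone. In that comparison TNFSF10 was the 1 member with an unadjusted p under 0.05, and DESeq2 passed 0.

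**Figure D3:**
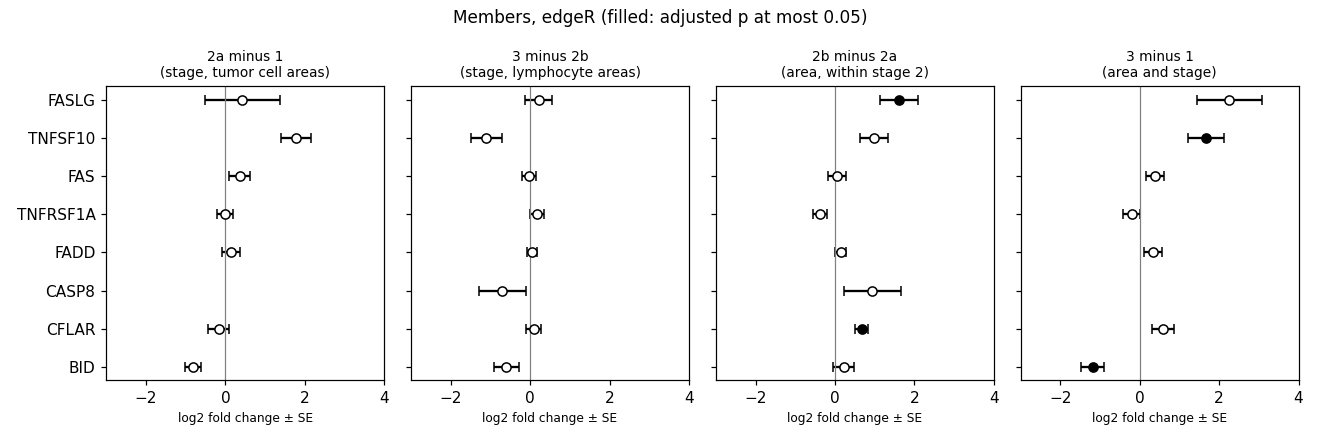
Log2 fold changes ± SE (x axis) of the 8 members (y axis) in the 4 comparisons, by edgeR; filled points had an adjusted p of at most 0.05. CASP8 has no point where its counts were too low to be tested, and the filled points are FASLG and CFLAR for group 2b minus 2a and TNFSF10 and BID for group 3 minus 1.

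FASLG, the ligand of FAS, lies on chromosome 7 (26217995 to 26226386). Its normalized counts were 0, 20.6, 52.8, 7.08 and 1.09 in group 1 and 15.8, 9.38, 9.998, 15.2 and 59.1 in group 2a. In group 2b it ran from 30.8 over a median of 66.8 to 114, and group 3 had 46.0, 146, 56.3, 92.7 and 53.4. The lymphocyte-rich samples were the high ones, but replicate 3 of group 1 and replicate 5 of group 2a lay within their range, so no pair of groups next to each other in the order of means was separate. The means were 16.3 ± 21.99, 21.9 ± 20.99, 67.9 ± 27.7 and 78.9 ± 41.7 in groups 1, 2a, 2b and 3.

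Among stage 2 samples, FASLG was higher by 1.61 ± 0.47 in the lymphocyte-rich areas than in the tumor cell-rich areas of other dogs (edgeR, adjusted p = 0.0314). Without replicate 5 of group 2a the value was 2.42 (adjusted p = 0.000758), but leaving out each of 7 other samples gave an adjusted p above 0.05, up to 0.0747, and so did the fit of all 4 groups (0.123) and that with single-dog samples of group 2b only (0.524). Between group 3 and group 1 the difference was 2.26 ± 0.82 with an adjusted p of 0.0865 in edgeR. It was 3.42 without replicate 3 of group 1 (adjusted p = 0.0197) and 0.98 with DV200 in the fit (0.674), and it passed in 3 of 16 alternative fits. The stage steps were 0.43 ± 0.94 in the tumor cell-rich areas and 0.21 ± 0.34 in the lymphocyte-rich areas (adjusted p = 0.854 and 0.836).

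T cell genes moved with FASLG. In the comparison of group 2b with group 2a, all 9 T cell genes tested were higher and 8 passed the adjusted p. Over the 9, the median log2 fold change was 2.03, against 1.61 for FASLG. Relative to the summed T cell genes, FASLG lay at a log2 ratio of -6.35 ± 1.07 for group 1, -5.55 ± 0.52 for group 2a, -5.98 ± 0.47 for group 2b and -6.01 ± 0.81 for group 3. The means lay farther apart than the SD of group 2a or 2b and less far than that of group 1, where the sample with no FASLG read has a ratio set by the pseudocount of 1. No test was made of these ratios. The 4 cytotoxic genes tested were all higher too, and 2 passed the adjusted p. Of 6 B cell genes, 5 were higher and passed it. FASLG and the T cell genes come from the same libraries, so the plot of one against the other is a description.

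**Figure D4:**
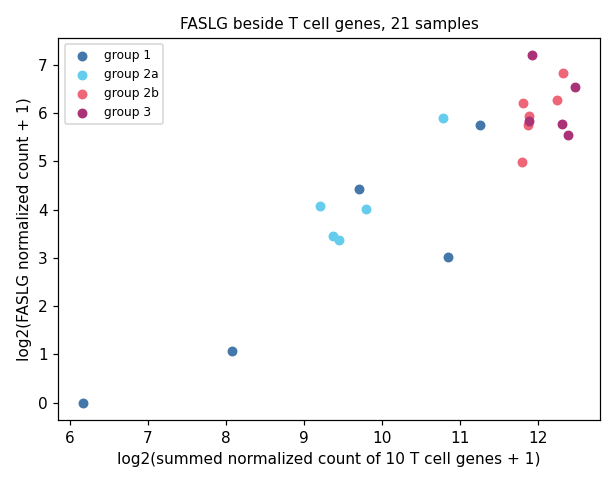
FASLG (y axis, log2 of the normalized count plus 1) against the summed normalized count of 10 T cell genes (x axis, log2 plus 1) in the 21 samples, colored by group. The sample of group 1 at 0 FASLG also had the lowest T cell sum, 70.9, and the lymphocyte-rich samples all lay at 3536 or more.

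FAS, the receptor for FASLG, lies on chromosome 26 (39027502 to 39052301), where 2 long noncoding RNA genes overlap it, and how strand was counted is not given in the sources used here. Its levels were similar in all groups, with means of 138 ± 49.6, 176 ± 54.8, 182 ± 44.4 and 178 ± 23.0 in groups 1, 2a, 2b and 3, and samples from 105 to 259. Its largest difference, 0.38 ± 0.22 between group 3 and group 1, had an adjusted p of 0.290 in edgeR. TNFRSF1A, the main receptor for TNF, on chromosome 27 (7438485 to 7451382), had means of 332 ± 96.0, 328 ± 56.0, 255 ± 58.0 and 288 ± 53.9, and differed most between group 2b and group 2a, by -0.37 ± 0.18 (adjusted p = 0.177). The ranges of FAS and of TNFRSF1A overlapped between all groups next to each other in order. TNF itself was at or near 0 and was not tested.

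FADD, the adaptor shared by the death receptors, lies on chromosome 18 (48543968 to 48550895). It was the least variable member within group 2b, with a coefficient of variation of 6.78%. Its means were 121 ± 38.2, 134 ± 22.6, 148 ± 10.02 and 153 ± 21.6, and no difference passed the test, the largest being 0.33 ± 0.22 between group 3 and group 1 (edgeR, adjusted p = 0.352).

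CASP8, the initiator caspase, lies on chromosome 37 (10248774 to 10259550) at the lowest counts of the 8. Its read counts were 2, 2, 5, 0 and 1 in group 1 and 7, 0, 8, 13 and 0 in group 2a, with 5 to 22 in group 2b and 1, 17, 2, 7 and 9 in group 3. At that depth a value of 3 counts or fewer cannot be told from 0, and 4 of 5 samples of group 1 lay there. CASP8 fell below the count filter in both comparisons with group 1. On log2 of the normalized count plus 1, no difference was detected by 2-sided exact permutation test for 2a against 1 (2.05 ± 1.91 against 1.32 ± 0.90, p = 0.437) or 3 against 1 (2.61 ± 1.29, p = 0.0952), and the smallest p such a test can give is 0.00794. In edgeR the difference between group 2b and group 2a was 0.94 ± 0.72 (adjusted p = 0.413) and that between group 3 and group 2b was -0.71 ± 0.59 (adjusted p = 0.642).

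CFLAR, the inhibitor of CASP8, ends 83032 bases from the start of CASP8 on chromosome 37 (10126854 to 10165741), with CASP10, another initiator caspase, between them. Its normalized counts were 86.9, 201, 200, 215 and 133 in group 1 and 115, 150, 117, 214 and 148 in group 2a. They ran from 201 over a median of 232 to 287 in group 2b, and were 214, 166, 211, 350 and 319 in group 3. The lymphocyte-rich samples were higher on average but the ranges overlapped between each pair of groups next to each other in the order of means. Between group 2b and group 2a CFLAR rose by 0.67 ± 0.18 (edgeR, adjusted p = 0.0177), which is under the log2 fold change of 1 that a call requires. It passed in 16 of 19 alternative fits, among them all 11 that left out a sample, and not with all 4 groups in 1 fit (adjusted p = 0.0563), the replicate block (0.0536) or single-dog samples of group 2b only (0.257). Between group 3 and group 1 it was 0.59 ± 0.28 (adjusted p = 0.173).

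Relative to CASP8, CFLAR lay at a log2 ratio of 6.00 ± 1.11 for group 1, 5.14 ± 1.91 for group 2a, 4.33 ± 0.55 for group 2b and 5.32 ± 1.33 for group 3. The means spread over more than the SD of groups 1, 2b and 3 and less than that of group 2a, which holds 2 samples with no CASP8 read. These ratios were not tested either.

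Of the 8 members tested between group 2b and group 2a, FASLG was called and CFLAR passed the adjusted p alone, while 9.55% of the 11545 genes tested were called and 16.5% passed the adjusted p. No member's samples were separate between the 2 areas, which held for 10.5% of the genes. TNFSF10 was the only other member with an unadjusted p under 0.05, and DESeq2 also passed it. The median log2 fold change of the 8 was 0.45, against -0.01 over all genes tested.

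Taking both directions together, other genes of the pathway passed the test in shares near those of all genes, though all that passed between areas rose. Between group 2b and group 2a, 1027 of all 11545 genes tested rose and 882 fell past the adjusted p, or 16.5% together. Of 22 other pathway genes tested there, 5 rose and 0 fell past the adjusted p, with a median over the 22 of -0.09. They were LTB, a TNF family ligand of lymphocytes (2.85 ± 0.49), BIRC3 (1.70 ± 0.35), TNFRSF25, a death receptor of T cells (1.61 ± 0.42), CASP10 (1.00 ± 0.19) and TRAF2, an adaptor of TNF receptors (0.98 ± 0.19). Their adjusted p values in edgeR ran from 0.00135 for LTB to 0.0170 for TNFRSF25. All 5 but TNFRSF25 had samples that did not overlap, which held for 10.5% of all genes tested. Another tested gene of the list, which did not pass, was also separate, with group 2b lower. For group 3 against group 1, 812 of all 11470 genes tested rose and 781 fell past the adjusted p, or 13.9% together. Of 21 other pathway genes tested there, 3 rose and 0 fell past the adjusted p. LTB rose by 2.56 ± 0.75, TRAF2 by 0.77 ± 0.24 and RIPK3, the kinase of necroptosis, by 0.56 ± 0.15. Their adjusted p values in edgeR ran from 0.0299 to 0.0496. Of 16 alternative fits, LTB passed in 8 (adjusted p up to 0.529), RIPK3 in 7 (up to 0.122) and TRAF2 in 5 (up to 0.660). For group 3 against group 2b, 0 of 21 passed in edgeR and 5 had an unadjusted p under 0.05.

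CASP6, a caspase that acts downstream of the initiators, passed the test in none of the 5 comparisons. Its difference between group 2b and group 2a was -0.32 ± 0.12 (edgeR, adjusted p = 0.0942), with means from 231 in group 2b to 330 in group 1. All of these are mRNA levels, and caspase cleavage was not measured.

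The genes whose pattern lay nearest to each member were found among 11486 genes with a mean of at least 10 normalized counts, by the root mean square difference over the 21 samples of log2 of the normalized count plus 1, centred on each gene's mean. For FASLG these were PCED1B (0.57), PRKCH (0.61) and LOC106557461 (0.64), while FASLG itself varied by 1.82 about its mean. For TNFSF10 they were APBB1IP (0.46), UTRN (0.49) and CBX3 (0.55), with 1.17 for TNFSF10 itself. BID lay nearest to PCBD2 (0.39), NDUFAF6 (0.40) and TTC39B (0.41), and CFLAR to OTUD5 (0.29), IRF2 (0.31) and PARP15 (0.31). BID and CFLAR themselves varied by only 0.61 and 0.49 about their means, so these matches are loose. FAS lay nearest to NFIC, MED13L and HNRNPH3, FADD to UFD1, SLC25A6 and DDX56, and TNFRSF1A to TMED9, PREX1 and DDOST. FAS, FADD and TNFRSF1A varied little about their means (0.38, 0.29 and 0.34), so that their nearest genes may mainly be other genes that varied little.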

How the data were processed

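The members and lists were chosen with earlier results of these data known. Reads were trimmed by the authors with cutadapt and mapped by STAR on UU_Cfam_GSD_1.0 and, per the labels' processing notes, also used featureCounts and DESeq2, with versions, counter settings and strand handling not given in the sources used here. For each gene and sample, a raw read count was deposited, the same in both tables. The deposited signal, the normalized count, equals that count divided by 1 size factor per sample. Both tables also hold the authors' own fold changes and p-values, which were not used. Groups and replicate numbers came from the labels, and positions from the RefSeq table of the same assembly. Replicates are different tumors, or pools of them.

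Raw counts were tested with the quasi-likelihood F-test of edgeR 4.0.16 (R 4.3.3) after TMM scaling, with the samples of the compared groups, over genes with at least 10 counts in at least 5 samples. SE is the size of the log2 fold change divided by the square root of F. Group 2a is shared by the comparisons with groups 1 and 2b, and likewise each other group is shared by 2 comparisons. The script was tested on simulated data. Alternatives were DESeq2 1.42.0, its size factors, all genes with a read, all 4 groups in 1 fit, DV200 as covariate, replicate number as block, no fold minimum, pooled or single-dog samples of group 2b only, other pseudocounts, CD3E as T cell measure, TMM levels, and leaving out each sample. For the difference between stage steps, DV200, the block, the group 2b subsets and leaving out samples were added after seeing the data. Members, CASP6 and other listed genes with an adjusted p of at most 0.05 are named. TNFSF12, TNFRSF10A, TNFRSF10B, TNFRSF10C, TNFRSF10D, CASP9 and MLKL were not analysed here, and results of some listed items are not reported here and were left out of the list counts. The limit of 3 counts covers counting error only, while the SD and SE also hold variation between samples. Python 3.11.15, scipy 1.17.1 and pandas 2.3.3 were used.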

Additional observations from a re-analysis of the deposited data

Results flagged for a closer look

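Of the 32 sets of samples examined (8 members in 4 groups), 4 held a sample far from the others of its group by Dixon's test, where chance alone gives about 1 in 20. Replicate 5 of group 2a had 59.1 normalized counts of FASLG, against 15.8 in the next sample. Replicate 1 of group 1 had 121 of BID against 87.4. Replicate 3 of group 2a had 94.4 of FADD against 137, and replicate 5 of group 3 had 196 of TNFRSF1A against 295.

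The 2 stage steps differed for 3 listed genes, TNFSF10 (2.87 on the log2 scale), BIRC3 (2.08) and TRADD (-0.94). Adjusted p values in the edgeR test of the difference between steps were 0.00966, 0.0203 and 0.0108. The steps were of different stages, 1 to 2 in tumor cell-rich and 2 to 3 in lymphocyte-rich areas. The BIRC3 and TRADD differences each passed in 25 of 27 alternative fits, with adjusted p values of up to 0.140 and 0.126 in the others.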

How the results depend on the processing

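The count of called genes moved with the method. For group 2a against group 1 (44) it was 264 with DESeq2, 184 with all 4 groups in 1 fit, 0 with DV200 as a covariate, and 0 to 76 when a sample was left out. For group 3 against group 2b (5) it was 47 with DESeq2, 3 with all genes with a read, 2 with all 4 groups in 1 fit, 2 with DV200, 0 with only pooled and 0 with only single-dog samples of group 2b, 13 with no fold minimum, and 0 to 50 when a sample was left out, the highest without replicate 3 of group 3. For group 2b against group 2a (1102) it was 133 with single-dog samples of group 2b and 1909 with no fold minimum. For group 3 against group 1 (955) it was 62 with DV200, 1593 with no fold minimum and 599 to 1049 when a sample was left out. For the difference between stage steps (496) it was 58 with DV200, 0 with single-dog samples, and 251 to 569 when a sample was left out. The causes were not tested.

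With the replicate number as a block, 0 genes were called in the former stage comparison (group 2a against 1) and 1 in the latter (group 3 against 2b), and the adjusted p was 0.0637 for TNFSF10 and 0.0525 for BID in group 3 against group 1, 0.0536 for CFLAR in group 2b against group 2a and 0.0456 for FASLG in group 3 against group 1. The numbers did not pair the samples: correlations of same-numbered deviations ran from -0.29 to 0.15, and a sample was closest to its own number in 4 of 20 pairs.

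Signs turned only for differences that passed no test. For FASLG in group 2a against group 1 the value was -0.96 with DV200 and -0.37 to 1.61 when a sample was left out. TNFRSF1A in that comparison was 0.0143 with all genes with a read, 0.11 with DV200, 0.0222 with the block, and -0.10 to 0.16 when a sample was left out. For group 3 against group 2b, pooled samples gave 0.14 for FAS and -0.00644 for FASLG, DV200 gave -0.11 for CFLAR and single-dog samples gave -0.0382 for TNFRSF1A, and leaving out a sample gave -0.13 to 0.0773 for FAS, -0.13 to 0.42 for FASLG, -0.0322 to 0.11 for FADD and -0.0613 to 0.20 for CFLAR. FAS in group 2b against group 2a was -0.13 with pooled samples and -0.0778 to 0.23 when a sample was left out. For the difference between steps, DV200 gave -0.60 for FASLG, 0.12 for CFLAR and 0.14 for BID, single-dog samples gave -0.37 for FASLG and 0.0153 for TNFRSF1A, and leaving out a sample gave -0.58 to 1.36 for FASLG and -0.0508 to 0.27 for FADD. TMM levels and the ratios under other pseudocounts or CD3E alone moved by less than 1 SD in all 52 values.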
